A study of Rattus norvegicus with 20 samples.

Results

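The genes described here are the Zfp zinc finger genes of the rat medial prefrontal cortex (mPFC), taken as every gene symbol made of Zfp and a number. The deposited matrix held 253 such symbols among 31038, and 232 of them passed the filter on low counts, which asked for 5 or more reads in 10 or more of the 20 rats and left 16605 genes for testing. The other 21 were too low to test, and 9 of these had no read in any rat. Just inside and just outside the filter stood Zfp663, with 5 or more reads in 12 rats, and Zfp82, which reached 5 reads in 4 rats. A large majority were well inside it, since 227 had 5 or more reads in every rat.

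Zinc finger proteins of the C2H2 kind fold short loops around a zinc ion, and a row of such fingers can read a stretch of DNA or RNA. Many of the mammalian ones carry a KRAB domain, which recruits Trim28 and, through it, the histone methyltransferase Setdb1, HP1 proteins and the NuRD complex to silence transposable elements and nearby genes. Others have no KRAB domain and act as promoter factors, RNA-binding proteins, or parts of histone methyltransferase complexes. Zfp644 belongs to the last kind, as its human counterpart binds the histone H3 lysine 9 methyltransferases G9a and GLP together with WIZ.

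The study compared 10 male Sprague-Dawley rats treated with lysergic acid diethylamide (LSD), a serotonin receptor agonist of the psychedelic class, with 10 rats given saline, to see what remains in the mPFC after the drug is stopped. LSD was given intraperitoneally on alternate days over 90 days at a dose of 0.16 mg/kg, with rats aged 6 to 8 weeks and weighing 180 to 200 g at the start, and controls received sterile saline on the same schedule. The series text gives 3 weeks of discontinuation, while the methods of the study give a longer interval and an older age, for both groups alike. All rats were housed singly and each gave 1 poly(A)-selected library from bulk tissue, so that fewer cells of a type and less RNA per cell cannot be told apart.

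The LSD libraries were on the whole larger, with 16346629 to 25552681 reads on genes against 11098076 to 24201351 in controls. Neuronal markers were high in every rat, with summed levels of 5995 to 7929 reads per 1000000 reads on genes (RPM). Markers of the neighbouring striatum were also present, and 4 rats stood apart by Adora2a, a receptor of striatal neurons, namely LSD 9 at 28.7 RPM and saline 2, 8 and 9 at 30.9, 44.6 and 42.4 RPM, against at most 13.7 RPM in the others. All 8 oligodendrocyte markers had lower mean levels in LSD, where the median of their log2 fold changes was -0.36 and 1 of 8 passed the test, although their summed levels overlapped between 2383 and 6049 RPM in LSD and between 2416 and 7830 RPM in saline. Neuronal and astrocyte lists had medians of -0.01 and 0.00 with 1 higher and 1 lower marker each, the lists for oligodendrocyte precursors, microglia and endothelium had medians of 0.00, 0.01 and -0.14, and that for choroid plexus and blood was at -0.22 with 1 of 6 markers lower. The part of these differences in the results that follow was not tested, except where values without the 4 rats are given.

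Of the 232 Zfp genes, 29 had higher and 14 had lower expression in LSD-treated rats by the test used. A gene was called by edgeR's quasi-likelihood test with an adjusted p under 0.05, where the adjustment (Benjamini-Hochberg) ran over all 16605 genes and the libraries were scaled by TMM, a factor for each library that centres the majority of genes. The shares were 12.5% up and 6.03% down, beside 6.49% up and 8.54% down over all genes tested. The log2 fold change of LSD against saline was above 0 for 153 of the 232 genes (65.9%), beside 50.4% over all genes, and its median was 0.08, beside 0.00 over all genes. The plot of all 232 log2 fold changes in rank order shows that this excess sat in modest values, since the whole range ran from -0.50 (Zfp296, adjusted p = 0.0893) to 0.58 (Zfp52).

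**Figure D1:**
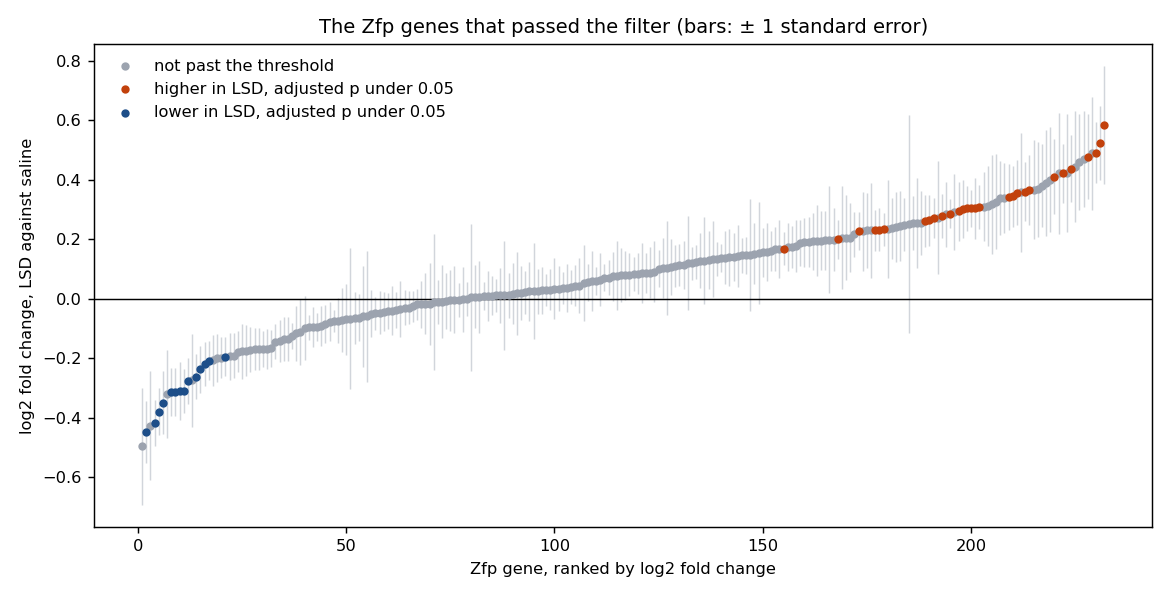
Log2 fold change of LSD against saline for each of the 232 Zfp genes, ranked from the lowest to the highest, with bars of 1 standard error. Orange points are the 29 up-regulated and blue points the 14 down-regulated genes, and 153 of all points lie above 0.

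Groups overlapped for every Zfp gene, as none of the 232 had all LSD-treated rats above or all below the controls, a pattern that 0.108% and 0.0843% of all genes showed. The mean of log2(RPM + 1) over the 232 genes ran from 3.69 to 3.79 in LSD, with a median of 3.76, and from 3.58 to 3.77 in saline, with a median of 3.68. The counts leaned on single rats. They fell to 13 up and 6 down without LSD 8 and to 15 and 6 without saline 4. They were 15 and 8 without saline 5, 16 and 9 without LSD 4, and 17 and 8 without saline 3. They were 18 and 10 without saline 1 and 19 and 11 without LSD 3. Leaving out LSD 7 gave 20 and 8, and leaving out LSD 9 gave 25 and 9. Both counts rose without LSD 1 (38 and 16), saline 10 (38 and 19) and saline 2 (52 and 24). The shares over all genes with 1 rat left out are not given here, so these shifts cannot be read as particular to the Zfp genes. Without the 4 rats with high Adora2a the counts were 54 up and 22 down, beside 10.2% and 10.1% of all genes, and these held 27 of the 29 and 12 of the 14. With the log2 number of reads of each rat as a covariate only 7 were up and 2 down, beside 3.22% and 3.85% of all genes, and these held 6 of the 29 and 2 of the 14. Scaling by total counts, which moved the median of all genes to 0.05, gave 33 up and 9 down (9.04% and 5.17% of all genes), and DESeq2 gave 38 and 18 (9.68% and 12.4%).

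Zfp644 had the smallest p-value of the 232 genes. Its level was 54.2 RPM in the lowest, 58.5 in the median and 62.3 in the highest LSD-treated rat, against 41.1, 46.9 and 55.2 in controls, in TMM-normalised RPM. The groups met only at their edges, as 9 of 10 LSD-treated rats were above the highest control, saline 2, and LSD 1 was just below it. The log2 fold change was 0.29 with a standard error of 0.0489 (edgeR adjusted p = 0.00358), on 512 to 1646 reads per rat. It stayed past the threshold without any 1 rat, with adjusted p-values of 0.00107 to 0.00991, without the 4 rats with high Adora2a (0.31, adjusted p = 0.00365) and with library size as a covariate (0.21, adjusted p = 0.0248).

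The 9 up-regulated genes that followed Zfp644 by p-value were Zfp451, Zfp597, Zfp292, Zfp397, Zfp445, Zfp148, Zfp281, Zfp263 and Zfp483. Zfp451, a SUMO ligase, had 43.7, 48.9 and 53.1 RPM in the lowest, median and highest LSD-treated rat and 32.4, 40.4 and 45.5 in controls. As for Zfp644, 9 of 10 LSD-treated rats were above every control, and the log2 fold change was 0.30 (standard error 0.0625, edgeR adjusted p = 0.00633). Zfp597, whose human counterpart is an imprinted gene, had 12.6, 14.2 and 16.6 RPM in LSD and 7.16, 10.5 and 13.3 in saline. Here 7 LSD-treated rats were above every control, and saline 4, 5 and 9 were the lowest at 7.16, 7.41 and 7.40 RPM, with a log2 fold change of 0.49 (standard error 0.103, edgeR adjusted p = 0.00676).

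Zfp292, whose human counterpart is mutated in a neurodevelopmental disorder, ranged over 24.7, 27.2 and 32.0 RPM in LSD (lowest, median and highest) and over 15.0, 19.6 and 27.3 RPM in saline. Controls were widely spread and saline 2, 8 and 10 reached LSD levels, while the log2 fold change was 0.42 (standard error 0.0993, edgeR adjusted p = 0.00996). Zfp397 ranged over 6.91, 8.08 and 9.75 RPM in LSD and 3.47, 5.61 and 7.44 in saline, and Zfp483 over 44.2, 53.7 and 58.6 against 23.4, 38.5 and 49.9. Both had larger log2 fold changes than Zfp644, 0.52 (edgeR adjusted p = 0.0100) and 0.44 (edgeR adjusted p = 0.0151), on a wider spread of controls.

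Zfp148 (ZBP-89) and Zfp281 (ZBP-99) are related factors that bind GC-rich promoters. Zfp148 had 76.4, 87.3 and 97.7 RPM in LSD and 65.2, 74.4 and 86.3 in saline, a log2 fold change of 0.23 (edgeR adjusted p = 0.0104). Zfp281 had 24.5, 26.0 and 28.1 RPM in LSD and 16.5, 21.8 and 26.4 in saline, a log2 fold change of 0.27 (edgeR adjusted p = 0.0134). LSD-treated rats were tightly grouped for Zfp281, and only saline 6 was above their median. Zfp263, a SCAN and KRAB protein, was lower, with medians of 9.97 RPM in LSD and 7.59 in saline and lowest rats of 7.46 and 6.80, LSD 1 being among the controls and saline 2 among the LSD-treated rats (log2 fold change 0.30, edgeR adjusted p = 0.0139). With library size as a covariate, Zfp451, Zfp597 and Zfp281 stayed past the threshold, whereas Zfp292 was at 0.23 (adjusted p = 0.0889), Zfp397 at 0.28 (0.0836), Zfp445 at 0.16 (0.0938), Zfp148 at 0.19 (0.0624), Zfp263 at 0.19 (0.115) and Zfp483 at 0.36 (0.0826).

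**Figure D2:**
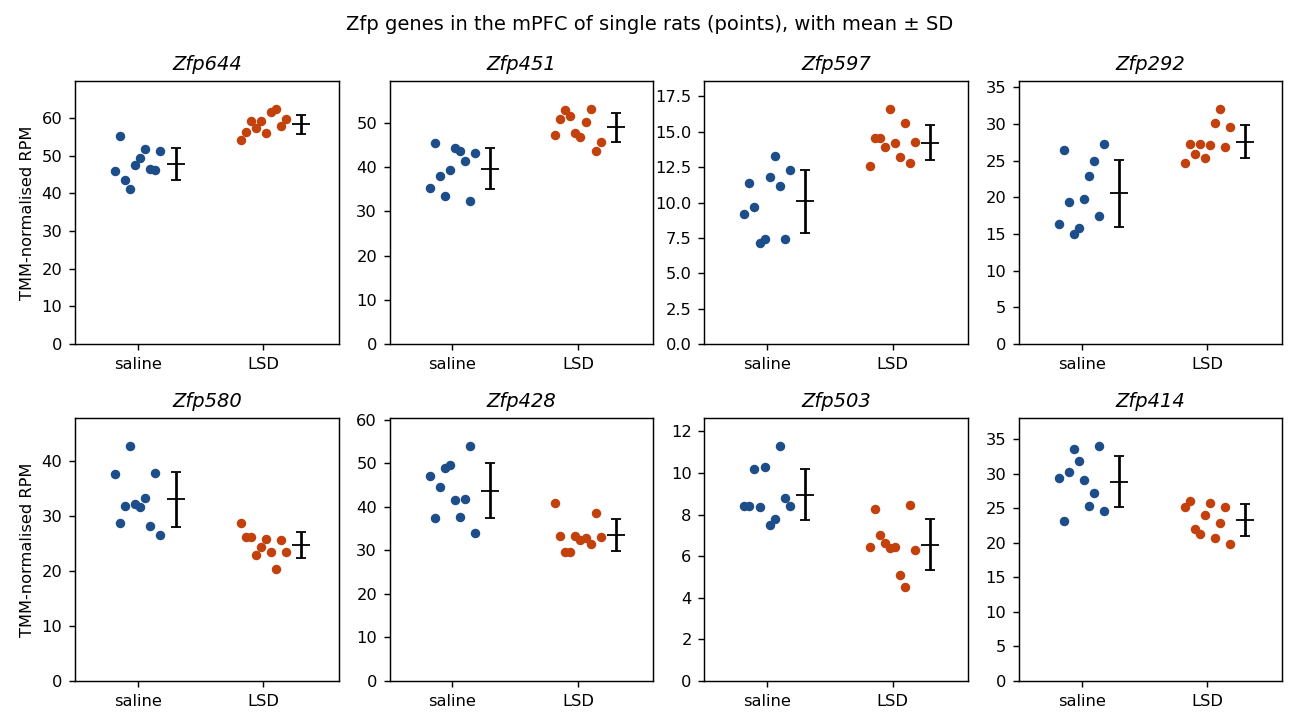
Level of 8 Zfp genes in TMM-normalised RPM (vertical axes start at 0) for each saline-treated and LSD-treated rat, with the mean and SD of each group of 10 beside its points. The upper genes were up-regulated and the lower genes down-regulated, and for Zfp644 and Zfp451 all but 1 LSD-treated rat were above the highest control.

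Among down-regulated genes Zfp580 had the smallest p-value. Its level was 20.3, 25.0 and 28.7 RPM in the lowest, median and highest LSD-treated rat and 26.6, 32.0 and 42.8 RPM in controls. All LSD-treated rats but LSD 1 were below every control, and the log2 fold change was -0.42 (standard error 0.0779, edgeR adjusted p = 0.00425). Zfp428 followed with 29.6, 33.0 and 40.8 RPM in LSD and 34.0, 43.1 and 54.0 in saline, and its log2 fold change was -0.38 (standard error 0.0783, edgeR adjusted p = 0.00633). LSD 1 and LSD 9 were the 2 LSD-treated rats within the range of controls. Zfp580 and Zfp428 were also the only genes that stayed down-regulated with library size as a covariate, at -0.31 (edgeR adjusted p = 0.0321) and -0.29 (edgeR adjusted p = 0.0432).

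Zfp503, also called NOLZ1, is a factor of striatal development and had 4.50, 6.44 and 8.48 RPM in LSD and 7.49, 8.40 and 11.3 RPM in saline. Its log2 fold change was -0.45 (standard error 0.105, edgeR adjusted p = 0.00943), the lowest among the called genes. Its highest rat in each group, LSD 9 and saline 8, was also the highest of its group for the summed striatal markers, at 318 and 503 RPM. The order did not hold for other controls, as saline 2 and 9, with striatal sums of 365 and 443 RPM, had Zfp503 at 8.41 and 8.81 RPM, and saline 3 and 5, with sums of 246 and 195 RPM, had 10.2 and 10.3. A relation between Zfp503 and striatal markers across rats was not tested. The 7 striatal markers had lower mean levels in LSD, where the median of the log2 fold changes was -0.81 and 1 of 7 passed the test, and their sums were 165, 189 and 318 RPM in LSD and 194, 208 and 503 in saline. Without the 4 rats with high Adora2a, Zfp503 was at -0.46 (edgeR adjusted p = 0.0112), and with library size as a covariate at -0.35, past the threshold no longer (adjusted p = 0.0598).

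Zfp414 had 19.8, 23.4 and 26.0 RPM in LSD and 23.2, 29.1 and 34.0 in saline (log2 fold change -0.31, edgeR adjusted p = 0.0104), and 5 LSD-treated rats were below every control. Zfp771 and Zfp358 had the same log2 fold change of -0.31 (edgeR adjusted p = 0.0143 and 0.0151), from medians of 87.6 and 56.0 RPM in saline to 70.8 and 45.7 in LSD. The remaining 4 of the 10 with the smallest p-values were Zfp523 (the counterpart of human ZNF76), Zfp276, Zfp575 and Zfp579. Zfp523 was the most abundant of them, with 85.9, 110 and 120 RPM in LSD and 102, 126 and 160 in saline (log2 fold change -0.28, edgeR adjusted p = 0.0226). Zfp276, Zfp575 and Zfp579 had log2 fold changes of -0.26, -0.35 and -0.31 (edgeR adjusted p = 0.0234, 0.0297 and 0.0332). With library size as a covariate none of these 7 genes passed, Zfp414 being at -0.19 (adjusted p = 0.101), Zfp771 at -0.13 (0.197), Zfp358 at -0.15 (0.185), Zfp523 at -0.10 (0.314), Zfp276 at -0.16 (0.205), Zfp575 at -0.16 (0.328) and Zfp579 at -0.09 (0.437). The calls of the last 4 also rested on single rats. Zfp523 missed the threshold without LSD 8 (adjusted p = 0.0519) or saline 4 (0.0509), Zfp276 without the same rats (0.0504 and 0.0503), Zfp575 without LSD 7, 8 or 9 or saline 1, 3, 4, 5 or 9 (0.0512 to 0.0638) and Zfp579 without LSD 4, 7, 8, 9 or 10 or saline 1, 3, 4 or 5 (0.0534 to 0.0724).

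To show the sequence context of genes that moved in opposite directions, the 250 bases before the RefSeq start of the most clearly up-regulated and down-regulated genes are given here on build GRCr8, 5′ to 3′ on the strand of the gene, with each CpG in capitals. They come from chr14:3249934-3250183 (plus strand) for Zfp644, chr9:43536607-43536856 (minus strand) for Zfp451, chr1:77818128-77818377 (minus strand) for Zfp580 and chr1:89227192-89227441 (plus strand) for Zfp428.
Zfp644: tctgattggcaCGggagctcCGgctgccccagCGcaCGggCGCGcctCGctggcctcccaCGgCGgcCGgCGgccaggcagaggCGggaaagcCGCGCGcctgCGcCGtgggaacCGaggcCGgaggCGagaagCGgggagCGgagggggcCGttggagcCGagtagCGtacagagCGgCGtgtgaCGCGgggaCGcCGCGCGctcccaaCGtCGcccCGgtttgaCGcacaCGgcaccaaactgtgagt
Zfp451: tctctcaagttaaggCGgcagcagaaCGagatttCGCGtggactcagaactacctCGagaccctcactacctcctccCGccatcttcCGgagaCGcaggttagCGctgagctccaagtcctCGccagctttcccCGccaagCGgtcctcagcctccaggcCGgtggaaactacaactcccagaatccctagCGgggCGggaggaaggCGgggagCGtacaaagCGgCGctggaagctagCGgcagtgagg
Zfp580: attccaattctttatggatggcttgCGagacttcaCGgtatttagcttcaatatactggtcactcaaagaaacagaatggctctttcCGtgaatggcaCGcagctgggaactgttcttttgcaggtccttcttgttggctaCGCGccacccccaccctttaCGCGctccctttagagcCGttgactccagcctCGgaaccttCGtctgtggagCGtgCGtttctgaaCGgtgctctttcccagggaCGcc
Zfp428: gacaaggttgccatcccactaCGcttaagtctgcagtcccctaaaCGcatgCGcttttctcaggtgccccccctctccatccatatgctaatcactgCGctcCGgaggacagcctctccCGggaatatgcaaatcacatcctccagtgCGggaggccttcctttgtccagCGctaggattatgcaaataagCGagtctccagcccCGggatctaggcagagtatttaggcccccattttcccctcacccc

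The Zfp644 stretch held 38 CpGs at 74.4% GC and that of Zfp451 held 20 at 62.0%, whereas those of Zfp580 and Zfp428 held 15 and 10 at 52.4% and 56.0%. Over the genes with a RefSeq start, the median number of CpGs was 17.5 for 28 up-regulated genes, 10 for the 14 that were down-regulated and 13 for all 196 matched Zfp genes, beside 15 over 12140 genes tested. The GC box GGGCGG, which contains a CpG, was found on either strand before 46.4% of up-regulated and 35.7% of down-regulated members, and before 43.9% of the matched Zfp genes and 55.5% of all genes. The CCAAT box (letters CCAAT) was before 25.0%, 28.6% and 39.3% of the same sets (higher, lower and all matched Zfp genes), beside 34.6% of all genes. TATAAA and the cAMP response element TGACGTCA were rare, in 8.16% and 2.55% of the matched Zfp genes and 6.80% and 2.73% of all genes. Such letters are a description of the sequence and no evidence of binding.

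By role, the lists held 2 to 10 genes each and were chosen with earlier results known, so their counts, beside 6.49% of all genes higher and 8.54% lower, are a description only. Beside Zfp644, the other member of the list for H3 lysine 9 methylation was Zfp462, a heterochromatin protein linked to a human neurodevelopmental syndrome, with a log2 fold change of 0.14 that did not pass the test (adjusted p = 0.338). Of 3 genes for imprinting and repeat silencing, 2 were up-regulated. Zfp445, a KRAB protein that protects imprinting control regions, had 49.7, 56.3 and 64.9 RPM in LSD and 34.8, 45.0 and 57.5 in saline (log2 fold change 0.31, edgeR adjusted p = 0.0102). Its partner in that role, Zfp57, was at 0.16 (adjusted p = 0.293) with a median of 10.8 RPM in LSD and 8.90 in saline. For Zfp57, 9 of 10 LSD-treated rats were above the control median, and 6 controls were above the lowest LSD-treated rat. Zfp638, or NP220, which silences unintegrated retroviral DNA, had 36.5, 47.7 and 61.7 RPM in LSD and 21.5, 37.8 and 51.2 in saline (log2 fold change 0.41, edgeR adjusted p = 0.0303), and missed the threshold without LSD 7 or 8 or saline 1, 3 or 5 (adjusted p = 0.0535 to 0.0609). It was at 0.13 (adjusted p = 0.395) with library size as a covariate.

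Among 10 genes with a role in neurons or neurological disease, 2 were up-regulated (Zfp292 and Zfp711) and 1 was down-regulated (Zfp503). Zfp711, an X-linked gene of intellectual disability whose protein works with the demethylase PHF8, was low, with 3.42, 4.03 and 5.09 RPM in LSD and 2.04, 3.23 and 4.62 in saline (log2 fold change 0.34, edgeR adjusted p = 0.0412, 22 to 129 reads). Its call was lost without any 1 of 11 rats, LSD 3, 4, 5, 7, 8 and 9 and saline 3, 4, 5, 6 and 9 (adjusted p = 0.0503 to 0.0811), and the covariate for library size brought it to 0.14 (adjusted p = 0.394). Zfp189, a KRAB protein studied in the mouse prefrontal cortex under stress, had one of the larger differences but did not pass (log2 fold change 0.47, adjusted p = 0.0526). Its levels were 7.78, 11.9 and 20.9 RPM in LSD and 6.28, 9.55 and 13.3 in saline, and LSD 7 alone exceeded 20 RPM. Without the 4 rats with high Adora2a it passed, at 0.64 (edgeR adjusted p = 0.0220), and with library size as a covariate it was at 0.11.

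The other 6 neuronal genes did not pass the test. Zfp365, a binding partner of DISC1 and one of the most abundant Zfp genes at medians of 337 RPM in LSD and 308 in saline, had 0.13 as its log2 fold change (adjusted p = 0.112), while Zfp110, which binds the neurotrophin receptor p75, was at 0.19 (adjusted p = 0.126). Zfp521, which promotes neural fate, and Zfp536, a repressor of neuronal differentiation, were at -0.17 (adjusted p = 0.117) and -0.11 (adjusted p = 0.531). For Zfp423 and Zfp335, the former needed by the cerebellum and the latter by neural progenitors, the values of -0.07 and -0.02 changed sign under other settings and gave no direction.

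Promoter factors, RNA-binding proteins and enzymes completed the roles. Of 6 promoter factors 3 were up-regulated (Zfp148, Zfp281 and Zfp263), while Zfp410, which activates Chd4, was at 0.15 (adjusted p = 0.115), Zfp384 at 0.08 (adjusted p = 0.445) and Zfp219 at -0.08 (adjusted p = 0.393). Of 5 RNA-binding or RNA-processing genes 2 were up-regulated. Zfp106, a protein needed by motor neurons, was the most abundant called gene, with 364, 410 and 473 RPM in LSD and 295, 355 and 436 in saline (log2 fold change 0.20, edgeR adjusted p = 0.0433), and missed the threshold without any 1 of 14 rats, LSD 2, 3, 4, 5, 6, 8, 9 and 10 and saline 3, 4, 5, 6, 7 and 9 (adjusted p = 0.0506 to 0.0856). Zfp318, which controls IgD transcripts in B cells, had 31.4, 34.9 and 37.6 RPM in LSD and 22.7, 29.9 and 34.9 in saline (log2 fold change 0.23, edgeR adjusted p = 0.0274) and missed it without LSD 8 or saline 1 or 4 (adjusted p = 0.0543 to 0.0566). With library size as a covariate Zfp106 was at 0.13 (adjusted p = 0.239) and Zfp318 at 0.24 (adjusted p = 0.0655).

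Zfp346, which binds double-stranded RNA, was at -0.12 (adjusted p = 0.0540) and Zfp326, part of a complex that couples transcription with splicing, was at 0.17 (adjusted p = 0.0963). Zfp36, or tristetraprolin, which destabilises AU-rich mRNAs and is induced by activity, was at -0.06 (adjusted p = 0.889), with 4.34 to 16.7 RPM in LSD and 3.88 to 11.2 in saline, so that any effect was within a wide spread. Of the last 3, Zfp451 was up-regulated as described, Zfp91, an atypical ubiquitin ligase, was at 0.17 (adjusted p = 0.127), and Zfp207, a spindle checkpoint partner, was at -0.10 (adjusted p = 0.122).

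The other up-regulated genes were Zfp612, Zfp704, Zfp398, Zfp40, Zfp192, Zfp800, Zfp131, Zfp949, Zfp84, Zfp709, Zfp831, Zfp169, Zfp329, Zfp61 and Zfp52, with log2 fold changes of 0.17 (Zfp84) to 0.58 (Zfp52) and edgeR adjusted p-values of 0.0180 (Zfp612) to 0.0485 (Zfp52). Zfp52 had 3 to 30 reads per rat and stood at 0.894, 1.09 and 1.29 RPM in LSD and 0.212, 0.748 and 1.16 in saline, so its value is the least certain of the 29. Zfp61 differed from the others in that 2 LSD-treated rats stood well above the rest in the heat map, its levels running over 16.7, 19.8 and 30.6 RPM in LSD and 16.6, 17.7 and 19.4 in saline (log2 fold change 0.26). Zfp612 was the most abundant of them at medians of 52.8 RPM in LSD and 44.6 in saline. The other down-regulated genes were Zfp341, an activator of STAT3, Zfp467, a factor of adipocyte and osteoblast fate, Zfp524 and Zfp689, with log2 fold changes of -0.24 (Zfp689) to -0.20 (Zfp341) and edgeR adjusted p-values of 0.0396 (Zfp524) to 0.0462.

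Of 20 measured partners through which KRAB zinc finger proteins act, 2 were higher and 1 was lower by the test, near what the shares over all genes (6.49% and 8.54%) give for a list of this size, and the median log2 fold change was 0.07. Atrx, a chromatin remodeller of heterochromatin, had 60.9, 70.7 and 85.4 RPM in LSD and 43.1, 56.8 and 66.5 in saline (log2 fold change 0.34, edgeR adjusted p = 0.0134), but with library size as a covariate it was at 0.20 and did not pass (adjusted p = 0.139). Morc2, an ATPase that compacts silenced chromatin, was at 0.17 (edgeR adjusted p = 0.0407), a call lost without any 1 of 11 rats, LSD 2 to 8 and saline 1, 3, 5 and 6 (adjusted p = 0.0535 to 0.0755). Mbd3, a subunit of NuRD, was down-regulated with 98.8, 104 and 109 RPM in LSD and 104, 120 and 145 in saline, 10 of 10 LSD-treated rats being below the control median (log2 fold change -0.22, edgeR adjusted p = 0.00889). With the covariate Mbd3 stayed past the threshold at -0.19 (edgeR adjusted p = 0.0471), and Morc2 did not (0.19, adjusted p = 0.0684). The central corepressor Trim28 was at -0.09 (adjusted p = 0.301) and Setdb1 at 0.14 (adjusted p = 0.0794).

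The G9a-GLP complex and its relatives, the partners of Zfp644, made a list of 7 genes. Near what the shares over all genes (6.49% higher and 8.54% lower) give for this size, 0 were down-regulated and 1 was up-regulated. This was Cdyl2, a chromodomain protein, with 36.3, 41.4 and 51.5 RPM in LSD and 25.8, 35.8 and 40.1 in saline (log2 fold change 0.25, edgeR adjusted p = 0.0277), and its call was lost without LSD 3, LSD 8 or saline 4 (adjusted p = 0.0544 to 0.0564). Ehmt2, which encodes G9a, was at -0.22 (adjusted p = 0.0603), with 323, 400 and 427 RPM in LSD and 337, 428 and 560 in saline. Without the 4 rats with high Adora2a it passed, at -0.28 (edgeR adjusted p = 0.0210), and with library size as a covariate it was at -0.03 (adjusted p = 0.818), while Cdyl2 was then at 0.28 (adjusted p = 0.0548). Ehmt1, which encodes GLP, and Wiz were at 0.00 (adjusted p = 0.991) and -0.02 (adjusted p = 0.803), and their sign changed with the setting.

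Across rats the called Zfp genes varied together. After the mean of each group was subtracted from log2(RPM + 1), the median Pearson r between pairs over the 20 rats was 0.53 among the 29 up-regulated genes, 0.56 among the 14 down-regulated genes and -0.51 between both sets, beside 0.05 among all 232. These points share library size, dissection and scaling, so that the values are a description only. By the same measure the genes most like Zfp644 were Zfp638 (r = 0.90), Zfp329 (0.89), Zfp445 (0.88), Zfp386 (0.87) and Zfp110 (0.86). Zfp638 and Zfp445 were up-regulated, as was Zfp329 at 0.29 (edgeR adjusted p = 0.0470), a call lost without any 1 of 14 rats, LSD 2, 3, 4, 6, 7, 8, 9 and 10 and saline 1, 3, 4, 5, 6 and 9 (adjusted p = 0.0517 to 0.0905), while Zfp386 was at 0.21 (adjusted p = 0.350).

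**Figure D3:**
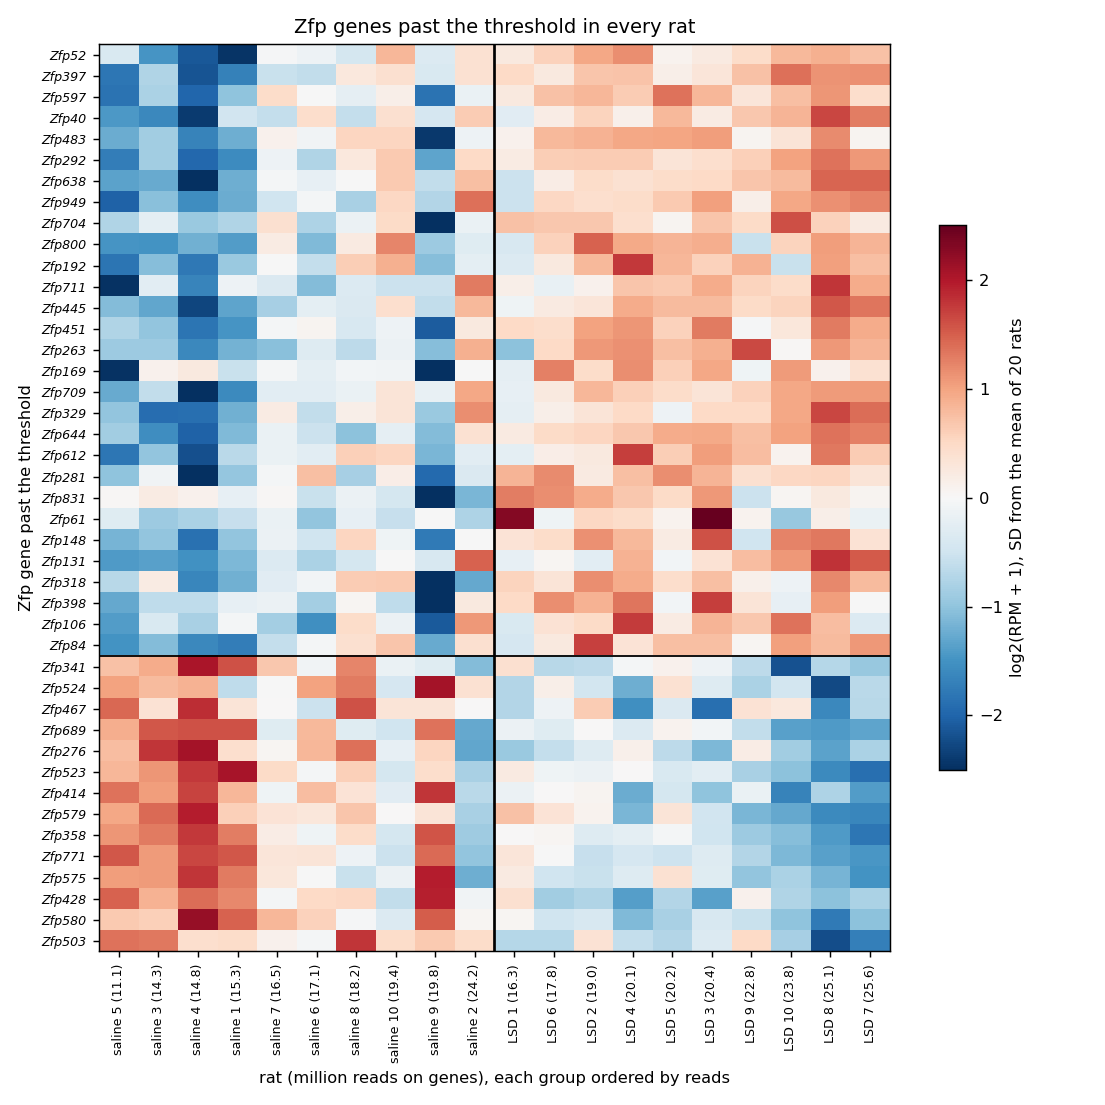
The 43 called Zfp genes in every rat, with the 29 up-regulated genes above and the 14 down-regulated genes below the horizontal line and each group of rats ordered by its reads on genes (axis labels in units of 1000000 reads). Colour is log2(RPM + 1) in SD from the mean of all 20 rats, and saline 4 is mostly blue above and red below the line, whereas saline 2, the deepest control with 24201351 reads, looks more like the LSD-treated rats.

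Each group of the heat map is ordered by library size, which the levels of controls did not follow throughout. Saline 9, with 19805283 reads, was the lowest control for Zfp451 (32.4 RPM) and Zfp483 (23.4 RPM). Zfp644 rose with the number of reads on genes among LSD-treated rats (Pearson r = 0.92, permutation p = 0.00016, Spearman rho = 0.95, permutation p = 0.00014), and r was 0.83 without the 2 rats farthest from the median size. Among controls the relation was weaker and did not pass the test (r = 0.63, permutation p = 0.0519, rho = 0.54, permutation p = 0.113, and r = 0.54 without the 2 farthest). Adjusted over these 2 relations, the p-values of r were 0.00032 and 0.0519, from two-sided tests with 100000 resamples. Library size also differed between groups, with medians of 20271086 reads in LSD and 16815424 in saline. Drawing every library down to 11098076 reads gave 23 higher and 13 lower Zfp genes (beside 5.51% and 7.12% of all genes), which held 18 of the 29 and 12 of the 14, whereas the covariate for library size gave 7 and 2, with Zfp451 (0.26), Zfp597 (0.39), Zfp281 (0.27), Zfp61 (0.33), Zfp831 (0.42) and Zfp526 (0.27, not called otherwise) beside Zfp644 on the higher side.

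**Figure D4:**
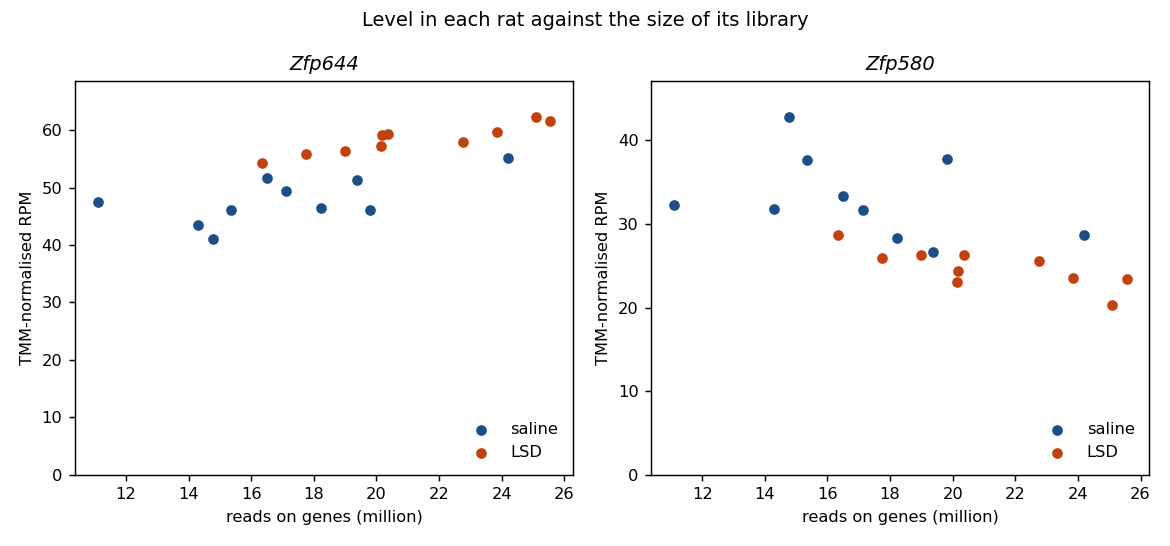
Level of Zfp644 (left) and Zfp580 (right) in TMM-normalised RPM in each rat against the reads on genes of its library. Zfp644 climbs from 54.2 to 62.3 RPM with library size in LSD and lies lower in saline, and Zfp580 runs the other way, from 28.7 down to 20.3 RPM in LSD.

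The up-regulated Zfp genes were longer than those that were down-regulated, a description that was not tested. The span of a gene, from its start to its end in the GRCr8 annotation, was known for 230 of the 232 and had a median of 19120 bases, beside 24516 bases for all genes with a span. The median was 33511 bases for the up-regulated, 6725 for the down-regulated and 19130 for the other Zfp genes. Of the 45 Zfp genes spanning 40000 bases or more, 11 were called and all 11 were up-regulated (24.4%, beside 14.4% of all genes of that span). Of the 46 under 10000 bases, 9 were down-regulated (19.6%, beside 18.2%) and 4 were up-regulated (8.70%, beside 1.30%). Between these, 14 of 139 were up-regulated (10.1%, beside 3.51%) and 5 were down-regulated (3.60%, beside 9.15%), so that Zfp genes under 40000 bases included more up-regulated genes than all genes of their span, which was not tested.

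Spearman's rho between span and log2 fold change was 0.27 across the 230 Zfp genes and 0.36 across all 14924 genes with a span, as a description across genes that are not independent. In single rats, the log2 level of each gene was taken relative to its mean over all rats. On this scale the difference between long and short genes ran from 0.03 to 0.14 in LSD and from -0.38 to 0.06 in saline. It was negative in 8 of 10 controls and lowest in saline 9. Such relative values balance over all rats, so positive values in LSD force negative ones in saline. The signs in saline are therefore no separate result about the controls. When the trend with span was removed from each rat by an offset, 15 Zfp genes were called higher and 11 lower, beside 3.36% and 6.80% of all genes. These held 15 of the 29 and 9 of the 14. Zfp644 was among them with 0.21 (edgeR adjusted p = 0.00890), while Zfp148, Zfp638 and Zfp106 missed the threshold (adjusted p = 0.0508, 0.0820 and 0.113).

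**Figure D5:**
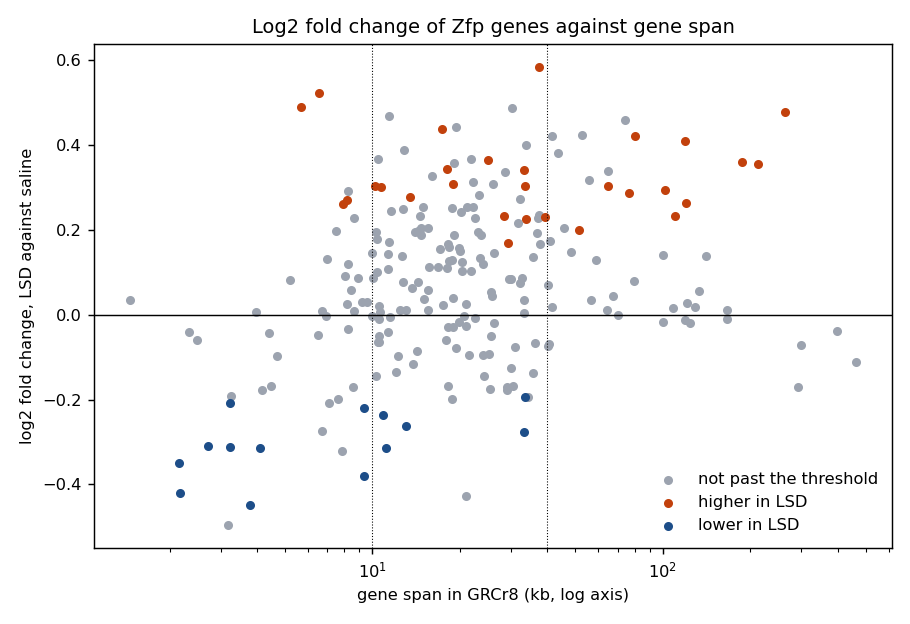
Log2 fold change of LSD against saline for the 230 Zfp genes with a known span, against that span in kilobases on a log axis, with dotted lines at 10 and 40 kb. Called genes beyond 40 kb were all up-regulated, and 9 of the 14 lower genes lay below 10 kb.

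Zfp genes often lie side by side, and 61 of them formed 24 runs of direct neighbours on GRCr8. In 16 runs every member had the same sign, but 65.9% of all Zfp genes were above 0, and agreement beyond that was not tested. The closely related neighbours Zfp51, Zfp53 and Zfp52 were at 0.37, 0.49 and 0.58 with only Zfp52 past the test, on few reads, and the treatment of reads that match several such copies was not given in the sources used here. The 61 genes in runs held 7 higher and 1 lower gene by the test, and the 169 others 22 and 13. Also, 11 of the 43 called genes overlap another coding gene on GRCr8, for example Zfp428 with Srrm5, Zfp276 with Fanca, Zfp106 with Capn3, Zfp467 with Sspo and Zfp329 with Zfp110. Because the strand setting of the counting was not given, reads of such pairs could not be told apart. By number of reads, 2 of 55 genes with a median under 100 were up-regulated (3.64%) and 0 were down-regulated. The 153 with 100 to under 1000 held 24 higher and 12 lower genes (15.7% and 7.84%). The 24 with 1000 or more held 3 and 2 (12.5% and 8.33%). The shares over all genes, 6.49% higher and 8.54% lower, cover genes of any number of reads. Shares over all genes within each class are not given.

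Other zinc finger families were counted by symbol, where 6.49% of all genes were higher, 8.54% were lower and 50.4% had a log2 fold change above 0. Of 7 genes with symbols made of Znf and a number, 0 were higher and 0 were lower by the test. Their log2 fold changes had a median of -0.07, with 2 of 7 above 0. All 12 Zscan and Zkscan genes, which carry a SCAN domain and in part also a KRAB domain, had log2 fold changes above 0, with a median of 0.23 and 2 of them up-regulated. The 38 Zbtb genes held 4 higher and 3 lower ones (10.5% and 7.89%, near the shares over all genes), with a median of 0.02. Of 27 Klf and Sp genes 3 were up-regulated, and of 19 Zc3h genes, whose fingers bind RNA, 2 were up-regulated and 1 was down-regulated, with medians of 0.07 and 0.04. Of 22 Zdhhc genes, palmitoyltransferases that hold zinc but do not bind DNA, 1 was up-regulated and 6 were down-regulated, with a median of -0.05. These families were counted beside the 232 Zfp genes and their differences from them were not tested.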

How the data were processed

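Poly(A) RNA from the mPFC of 20 rats was sequenced with 1 library per rat. The values deposited by the authors are raw read counts per gene, made by trimming with TrimGalore, alignment with HISAT2 to rn6 (Rnor_6.0) and counting with HTSeq-count, with no normalisation. Tool versions, the annotation and the strand setting were not given in the sources used here. The 5 entries without a gene name (25.5% to 29% of reads) were left out. Groups came from the sample labels, which do not say more of how the rats were assigned.

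The filter of the study's methods (5 or more reads in 10 or more rats) left 16605 genes. They were scaled by TMM and tested by quasi-likelihood F tests in edgeR 4.0.16 (R 4.3.3), with p-values adjusted by Benjamini-Hochberg over all of them and a threshold of 0.05. Precision is set by the spread between the 10 rats of a group. Standard errors were derived from the test, as the absolute log2 fold change divided by the square root of the F statistic. RPM are TMM-scaled counts per 1000000 reads on genes. Other settings were DESeq2 1.42.0, scaling by median-ratio size factors or total counts, no filter, a filter of 10 reads in 10 rats, a replicate block, 1 surrogate variable (sva 3.50.0), equal depth, span offsets (the trend of log2(RPM + 1) over 50 bins of genes by span, smoothed over 5 bins and centred), both together, and each rat left out. Leaving out the 4 rats with Adora2a over 20 RPM, library size as a covariate, and the promoter measures were added after seeing the data. Spans and neighbours came from RefSeq on GRCr8, which had a span for 89.9% of the tested genes, and promoters from its start sites. Protein features were not analysed here.

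The Zfp genes, role lists, partner lists and marker lists were chosen with earlier results of these data known. Genes named are Zfp644, the 10 called Zfp genes of smallest p-value on each side, those of the role lists, called partners with Trim28, Setdb1, Ehmt1, Ehmt2 and Wiz, the 5 most like Zfp644 and those next to the filter. The other called genes, Zfp296, Zfp526, Zfp51 and Zfp53 were named after their values were seen.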

Additional observations from a re-analysis of the deposited data

Results flagged for a closer look

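Among the 52 genes followed by name, each with its 2 groups of 10 rats, 8 of 104 groups had 1 rat farther from its neighbour than Dixon's 95% limit for 10 values. Chance gives about 1 in 20 such groups. Zfp36 had 16.7 RPM in LSD 2, with 8.60 RPM in the next rat. Zfp423 had 91.0 RPM in LSD 2, above 73.3 in the next, and 97.8 RPM in saline 4, above 75.2. Zfp219 had 48.0 RPM in saline 4, above 38.8 in the next. Zfp711 reached 5.09 RPM in LSD 8, above 4.30, and Zfp365 reached 370 RPM in saline 1, above 322. At the low end, Zfp110 had 14.0 RPM in LSD 1, below 17.1 in the next rat, and Morc2 had 24.7 RPM in saline 9, below 31.1. Of these 8, LSD 2 and saline 4 each held 2.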

How the results depend on the processing

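Zfp644 was called under every setting tried, at log2 fold changes of 0.21 to 0.33, or 0.26 to 0.31 with 1 rat left out. The median of the Zfp genes stayed above 0 in each of these settings, at 0.062 to 0.095 with 1 rat left out. Leaving out 1 rat gave 13 to 52 up-regulated and 6 to 24 down-regulated Zfp genes, and 1 to 7 and 1 to 2 partner genes. The shares over all genes are not given for these fits. DESeq2 called 38 and 18 of the 216 Zfp genes to which it gave an adjusted p, beside 9.68% and 12.4% of all genes, and 5 and 2 partners. Down-regulated Zfp genes were 9 with total counts (beside 5.17% of all genes) and 9 with no filter, where the share over all genes is not given. Partners up-regulated were 5 with total counts, 1 with span offsets and 1 with span offsets and the block together. Span offsets left 15 Zfp genes up-regulated. Without the 4 rats with high Adora2a there were 54 and 22 Zfp genes and 7 and 2 partners, and with library size as a covariate 7 and 2 Zfp genes and 0 partners up-regulated by edgeR (7 at an unadjusted p under 0.05).

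The labels do not say that a replicate number marks a shared litter, batch or day. Same-number pairs had correlations of -0.26 to 0.47. Their mean was 0.15 against -0.02 for other pairs, and 6 of 10 were over 0.1. These values do not settle whether the number pairs the rats, and a partial relation remains possible. The main test did not use the number. Rat 1 alone correlated best with its own number in both groups. The replicate block gave 38 and 14 Zfp genes, beside 29 and 14 without it, and 5 and 2 partners, with Ehmt1 at 0.002. The shares over all genes are not given for the block, so its counts cannot be read as particular to the Zfp genes.

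Signs turned only for genes that were not called. Ehmt1 was above 0 with total counts (0.046), no filter (0.016), at least 10 reads (0.006), 1 surrogate variable (0.036), equal depth (0.015) and the covariate (0.080), Wiz with total counts (0.022), the surrogate variable (0.029) and the covariate (0.076), and Zfp335 with the same (0.031, 0.074 and 0.121). Zfp423 was above 0 with the surrogate variable (0.013) and the covariate (0.114), Zfp36 with span offsets (0.019) and the covariate (0.069), Trim28 with the covariate (0.027), and Zfp386 was below 0 with the covariate (-0.096). With 1 rat left out, Ehmt1 ran from -0.029 to 0.020, Zfp335 from -0.047 to 0.024, Zfp423 from -0.136 to 0.001 and Zfp36 from -0.281 to 0.033. The cause of these changes was not tested.

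Depth limits the low genes most, such as Zfp52 with 3 to 30 reads and Zfp711 with 22 to 129, and neither GC content, transcript length nor RNA quality was used here.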
